A study of Mus musculus with 6 samples.

Results

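The 7 genes described here are the core of the TGF-beta pathway: the ligand Tgfb1, its receptors Tgfbr1 and Tgfbr2, the signal carriers Smad2, Smad3 and Smad4, and the inhibitor Smad7. They were taken by gene symbol from the 27378 gene IDs of a single-cell count table, in which each of the 7 had its own row. Tgfbr1 and Smad7 were read most in microglia-like cells, at 1011 ± 307 and 816 ± 72.9 counts per 1000000 counts of the class in a library (CPM; SD, n = 6 libraries), and no library of another class reached the lowest microglia-like library. Groups of mice were compared in microglia-like, monocyte/macrophage-like, T-like and dendritic-like cells, where 0% to 11.1% of all genes passed the test by comparison. Of the 7 genes, 0 passed in any of these classes, with Smad3 not tested in T-like cells. The nearest to passing were Tgfbr1 and Smad4 in microglia-like cells of Rbpj-deleted tumours, both lower than in healthy brain.

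TGF-beta is made as a latent complex, and once freed it binds the type II receptor Tgfbr2, which then recruits and phosphorylates the type I receptor Tgfbr1. The activated Tgfbr1 phosphorylates Smad2 and Smad3, which join Smad4 and enter the nucleus, where they switch target genes on or off. Smad7, itself a target of the pathway, blocks the activated receptor. In the adult mouse brain, microglia need TGF-beta to acquire and keep their homeostatic genes, among them Tmem119, Sall1 and P2ry12.

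The cells were CD45+ immune cells sorted from mouse brain and sequenced with 10x Genomics 3' chemistry (version 3 kit) in 6 libraries, 2 to a group. In the first group the gliomas lacked Trp53 and Rbpj, in the control tumours they lacked Trp53 and were wild type for Rbpj, and the healthy brains were wild type for both genes. Rbpj encodes the transcription factor through which Notch receptors act, and Trp53 encodes p53. The deletions were made with a Cre recombinase that also switched on a GFP reporter at the Rosa locus (Rosa-CAG::GFP), by which early tumours were found and dissected. The sources used here do not name the promoter behind Cre, and the immune cells were sorted by CD45 and not by GFP. The design text gives pools of 9 Rbpj-deleted tumours, 15 control tumours and 9 healthy brains, whereas the protocol describes 1 mouse to a well, and nothing says which mice entered which library. A p-value below therefore measures the spread between libraries, which may be technical.

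The libraries held 17430763 to 55229031 counts, and 14276 cells were kept. Rbpj RNA in these immune cells was at 58.8 and 44.1 CPM in Rbpj-deleted tumours, against 82.2 and 79.9 CPM in control tumours and 32.8 and 59.2 CPM in healthy brain. Both Rbpj-deleted libraries lay below both control ones and overlapped the healthy ones. The GFP+ tumour cells were sorted apart from the cells sequenced, and the sources used here do not say whether Cre acted in immune cells, so this level is no clear check of the labels. The microglia-like class held 1100 and 506 cells in Rbpj-deleted tumours, 233 and 191 in control tumours, and 4647 and 1626 in healthy mice, and each of its libraries had counts of all 12 microglia markers measured. The monocyte/macrophage-like class held 708 and 778, 202 and 81, and 1017 and 314 cells in the same order of groups. T-like cells numbered 34 and 62 in Rbpj-deleted tumours, and 153 and 65 in control tumours, whereas the healthy libraries held 18 and 12, so levels in healthy T-like cells are not given. A class enters the values below in a library where it had at least 20 cells. Of all barcodes, 2813 were left out for mixed lineage markers, 2022 of them myeloid barcodes with T or NK genes, and 256 as likely index-hopped copies among the 413 that libraries shared. None of the 7 genes was among the variable genes used to form the clusters.

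Tgfb1, which encodes the ligand, was read in every class. Its mean over libraries was 375 CPM in microglia-like cells, 357 CPM in B-like, 334 CPM in monocyte/macrophage-like, 290 CPM in NK-like and in plasmacytoid dendritic-like, 264 CPM in dendritic-like and 216 CPM in T-like cells. Each class overlapped its neighbour in this order.

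Tgfbr1, the type I receptor kinase, spanned the widest range over classes. Microglia-like libraries ran from 616 to 1456 CPM, and monocyte/macrophage-like libraries from 124 to 606 CPM. Plasmacytoid dendritic-like cells averaged 256 ± 10.4 CPM (SD, n = 2) and dendritic-like cells 235 ± 173 CPM (SD, n = 5). Lymphoid classes were low, at 42.6 ± 32.2 CPM in B-like (SD, n = 4), 25.4 ± 4.73 CPM in NK-like (SD, n = 3) and 19.3 ± 4.92 CPM in T-like cells (SD, n = 4). The microglia-like class stood apart from the next class, and the other neighbours in this order overlapped.

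Tgfbr2, the type II receptor that binds the ligand, did not share that step. It averaged 253 ± 25.7 CPM in microglia-like and 234 ± 86.9 CPM in monocyte/macrophage-like cells (SD, n = 6 each), with overlapping libraries. Plasmacytoid dendritic-like cells averaged 162 CPM, NK-like 109 CPM, dendritic-like 106 CPM, B-like 99.6 CPM and T-like cells 74.4 CPM. All neighbours in this order overlapped.

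The promoters of the receptors and of Smad3 are shown because Tgfbr1 and Smad3 differed between the 2 large myeloid classes and Tgfbr2 did not pass that test. Each sequence runs from 250 bases before to 50 bases after an annotated RefSeq start in GRCm38.p6, 5' to 3' on the gene's own strand. Smad2, Smad4 and Smad7, on a chromosome left out beforehand, were not searched, and the other 4 of the 7 genes were matched. Capitals mark CAGAC, the core of the Smad-binding element (GTCTG on the other strand was searched too). The Tgfbr1 promoters are chr4:47352972-47353271 and chr4:47385966-47386265, both on the plus strand. The Tgfbr2 promoter is chr9:116175314-116175613 and the Smad3 promoter chr9:63757945-63758244, both on the minus strand.
Tgfbr1 first start: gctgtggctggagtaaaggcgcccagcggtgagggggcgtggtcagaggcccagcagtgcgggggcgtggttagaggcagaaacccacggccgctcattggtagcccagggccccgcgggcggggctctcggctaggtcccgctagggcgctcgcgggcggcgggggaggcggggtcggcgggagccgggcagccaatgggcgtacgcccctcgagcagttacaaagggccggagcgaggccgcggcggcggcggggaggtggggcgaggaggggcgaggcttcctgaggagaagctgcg
Tgfbr1 second start: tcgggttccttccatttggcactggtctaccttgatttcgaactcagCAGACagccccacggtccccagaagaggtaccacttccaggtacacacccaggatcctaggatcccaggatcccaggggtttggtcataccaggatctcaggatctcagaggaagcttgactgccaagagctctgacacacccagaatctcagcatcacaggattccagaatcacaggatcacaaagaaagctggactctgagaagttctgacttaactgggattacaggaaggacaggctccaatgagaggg
Tgfbr2: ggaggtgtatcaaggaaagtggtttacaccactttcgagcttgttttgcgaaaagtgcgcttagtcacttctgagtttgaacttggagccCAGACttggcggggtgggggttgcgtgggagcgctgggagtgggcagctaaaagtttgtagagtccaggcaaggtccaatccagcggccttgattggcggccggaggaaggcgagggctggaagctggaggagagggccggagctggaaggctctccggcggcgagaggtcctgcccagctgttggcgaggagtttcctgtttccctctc
Smad3: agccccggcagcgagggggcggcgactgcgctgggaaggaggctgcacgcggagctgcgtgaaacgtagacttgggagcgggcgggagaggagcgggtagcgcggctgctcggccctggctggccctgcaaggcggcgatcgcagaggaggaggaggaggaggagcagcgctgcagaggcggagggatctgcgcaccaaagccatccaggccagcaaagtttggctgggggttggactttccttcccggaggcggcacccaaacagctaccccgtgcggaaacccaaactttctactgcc
The first Tgfbr1 start, at the 5' end of the gene, held 0 copies of the motif and the second, inside the gene, held 1. The Tgfbr2 promoter held 1 copy, and those of Smad3 and Tgfb1 held 0. Of 32851 mouse promoters of the same length, 49.6% held at least 1 copy. The first Tgfbr1 start had 34 CG pairs, the Tgfb1 promoter 30 and the Smad3 promoter 25. Tgfbr2 had 15 and the second Tgfbr1 start 3, against a median of 7 over all promoters. Tgfb1, like Tgfbr2, did not pass the test between the classes. The 3' chemistry reads transcript ends, so the 2 Tgfbr1 starts were not told apart in the counts.

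Smad2 and Smad3, the Smads that the receptor phosphorylates, were both at low levels. Smad2 averaged 51.7 CPM in microglia-like, 45.01 CPM in monocyte/macrophage-like, 44.8 CPM in NK-like, 38.7 CPM in dendritic-like and 34.4 CPM in T-like cells. Smad3 averaged 38.5 CPM in microglia-like, 31.8 CPM in NK-like, 22.4 CPM in monocyte/macrophage-like and 9.19 CPM in T-like cells. In 1 T-like library of control tumours Smad3 had 0 of 850705 counts, which allows up to 3.53 CPM (3 counts, counting error only). Libraries of neighbouring classes overlapped for both genes.

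Smad4, the partner shared by all receptor-activated Smads, differed little between classes, with 78.1 CPM in dendritic-like, 75.1 CPM in microglia-like, 71.9 CPM in B-like, 63.4 CPM in monocyte/macrophage-like and 46.6 CPM in T-like cells. A gene on the other strand, AC132418.2, overlaps Smad4 (GENCODE vM21, chr18:73639009-73703780, minus strand), and the sources used here do not state whether counting used strand, so reads of the 2 genes may be mixed.

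Smad7, the inhibitor, averaged 816 CPM in microglia-like cells, where its 6 libraries ran from 703 to 900 CPM. Plasmacytoid dendritic-like cells averaged 408 CPM, NK-like 397 ± 56.2 CPM (SD, n = 3), T-like and monocyte/macrophage-like 245 CPM each, dendritic-like 240 CPM and B-like cells 214 CPM. Microglia-like libraries did not overlap those of the next class, and neither did NK-like and T-like libraries.

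**Figure D1:**
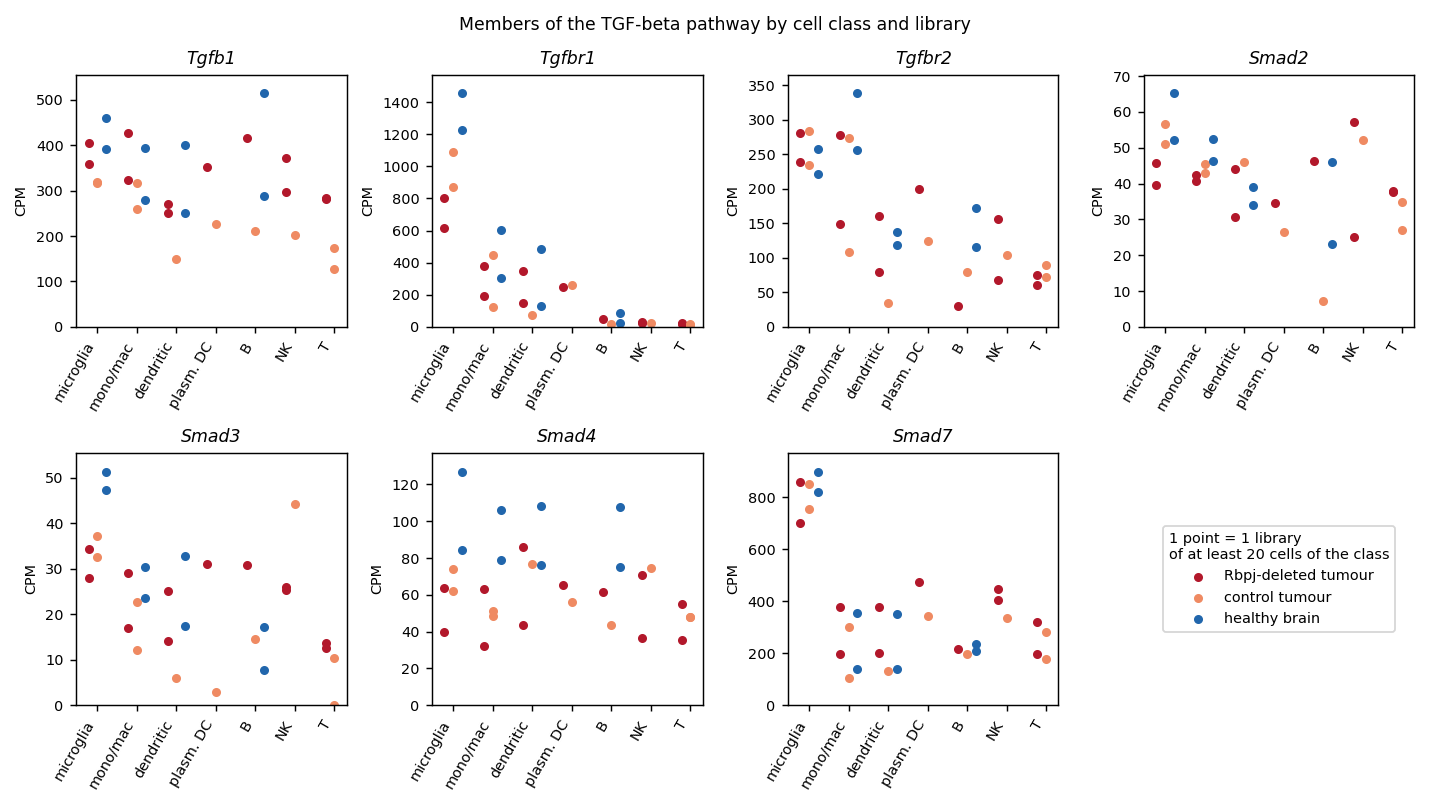
Level of each of the 7 genes (vertical axes, CPM, linear from 0) in 7 cell classes (horizontal axes). Each point is 1 library with at least 20 cells of the class, coloured by group; Tgfbr1 and Smad7 have all 6 microglia-like points above the points of the other classes, and Tgfb1, Smad2 and Smad4 have overlapping classes.

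Microglia-like cells were tested against monocyte/macrophage-like cells within the same 6 libraries, after clustering with the 7 genes and the pathway lists left out. Tgfbr1 was higher in microglia-like cells by 1.64 ± 0.22 on the log2 scale (edgeR quasi-likelihood adjusted p = 0.000474). Smad7 was higher by 1.83 ± 0.24 (adjusted p = 0.000486) and Smad3 by 0.74 ± 0.13 (adjusted p = 0.00158). In the classes behind the levels above, which come from the clustering with no gene left out, each was higher in the microglia-like class in 6 of 6 libraries. There the ratio between the classes ran from 2.03 to 7.01 for Tgfbr1, from 2.29 to 7.36 for Smad7 and from 1.19 to 2.71 for Smad3.

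Smad4, Tgfbr2, Smad2 and Tgfb1 did not pass, with log2 differences of 0.20 ± 0.08, 0.16 ± 0.17, 0.14 ± 0.10 and 0.13 ± 0.11 (adjusted p = 0.0556, 0.463, 0.281 and 0.379 by edgeR). Over all genes, 5103 of 11914, or 42.8%, were called between these classes, so 3 of 7 called members is close to the background. With the libraries of Rbpj-deleted tumours alone, Smad3 no longer passed (adjusted p = 0.0848). Tgfbr1 and Smad7 passed under all 18 settings run. Smad4 passed under 4 of these settings, and Tgfbr2, Smad2 and Tgfb1 under 0.

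The size of this difference has to be read beside the microglia RNA found in the other class. The 12 microglia markers summed to 17299 and 20130 CPM in microglia-like cells of Rbpj-deleted tumours, 19554 and 21159 CPM in those of control tumours and 31853 and 32005 CPM in healthy ones. In monocyte/macrophage-like cells they still summed to 7610 and 4512 CPM, 2208 and 8446 CPM, and 15523 and 6557 CPM in the same order. No class was free of them, and T-like libraries held 118 to 198 CPM.

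For each 1000 counts of microglia markers, microglia-like cells had 46.3 and 30.6 counts of Tgfbr1 in Rbpj-deleted tumours, 44.5 and 51.6 in control tumours and 38.6 and 45.5 in healthy libraries. Monocyte/macrophage-like cells had 49.7 and 42.2, 56.3 and 53.3, and 39.0 and 46.8 in the same order. The ratio was higher in monocyte/macrophage-like cells in 6 of 6 libraries, most so in the second Rbpj-deleted and the first control library and least in the healthy ones. Smad7 had 49.8 and 34.9, 38.7 and 40.3, and 25.8 and 28.1 in microglia-like cells, against 49.5 and 43.3, 46.6 and 35.6, and 22.8 and 21.4 in monocyte/macrophage-like cells. How much of the Tgfbr1 and Smad7 read in monocyte/macrophage-like cells came from microglia RNA was not tested.

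Tgfbr2 behaved otherwise, with 6.94 to 16.2 counts per 1000 marker counts in microglia-like cells and 16.5 to 51.6 in monocyte/macrophage-like cells. In T-like cells, Smad7 stood at 1099 to 1805 counts per 1000 marker counts and Tgfbr2 at 338 to 610. Those ratios lie far above the microglia-like ones. Tgfbr1 in T-like cells stood at 103 to 141, on 6 to 34 counts a library, which is above the microglia-like ratios too.

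**Figure D2:**
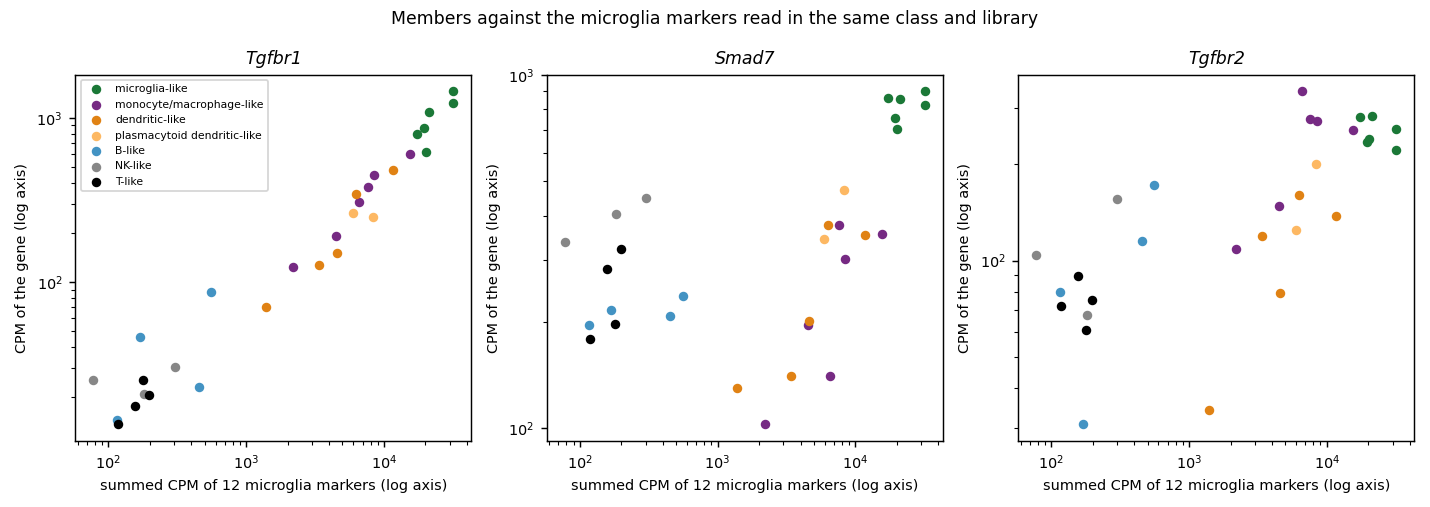
CPM of Tgfbr1, Smad7 and Tgfbr2 (vertical log axes) against the summed CPM of 12 microglia markers (horizontal log axes). Each point is 1 cell class in 1 library; Tgfbr1 climbs with the markers over the myeloid classes, whereas Smad7 in T-like, NK-like and B-like cells (179 to 449 CPM) is as high as in some myeloid libraries at far lower marker sums.

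The share of cells with a count of each gene was compared after each cell was thinned to 3000 counts, which left out 13 to 253 microglia-like cells a library, 9 to 127 monocyte/macrophage-like cells and 2 to 28 T-like cells. Tgfbr1 was seen in 78.9% to 97.5% of microglia-like cells over libraries (median 89.1%), in 22.7% to 57.2% of monocyte/macrophage-like cells (median 43.2%) and in 3.40% to 8.82% of T-like cells (median 6.75%). Before thinning the medians were 97.0%, 62.8% and 17.0%. Free RNA sets a floor under such shares: Tmem119, a microglia gene that T cells should lack, was seen in 1.36% to 7.14% of thinned T-like cells, and in 8.29% to 57.8% of monocyte/macrophage-like cells. The Tgfbr1 share of T-like cells overlapped that range and ran above it in 1 library, on 2 to 5 cells with a count a library, so these shares do not settle whether it lies above background.

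Smad7 was seen in 75.9% to 84.7% of thinned microglia-like cells, 16.1% to 40.2% of monocyte/macrophage-like cells and 44.1% to 60.7% of T-like cells. Its T-like share lies above the Tmem119 share. Tgfbr2 was seen in 43.8% to 56.3% of microglia-like cells, 25.4% to 63.7% of monocyte/macrophage-like cells and 14.7% to 23.8% of T-like cells. Its first 2 ranges overlapped.

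The classes held several clusters in which the 7 genes differed, described here with no test since the clusters come from the same cells. Different clusters held most microglia-like cells of the libraries. A cluster led by Spp1, Cadm1 and Cd9 held 254 of 1100 and 405 of 506 of them in Rbpj-deleted tumours, 26 of 233 and 45 of 191 in control tumours and 147 of 4647 and 60 of 1626 in healthy brain. A cluster led by Il1a, Csf1 and Egr3 held 749 and 49 in Rbpj-deleted tumours, 99 and 91 in control tumours and under 20 in each healthy library. A cluster led by Hspb1, a heat shock gene, held 1441 cells of the second healthy library, whereas most of the first healthy library lay in clusters with Slc2a5 among their leading genes. Tgfbr1 was lower in the Spp1-led than in the Hspb1-led cluster in 6 of 6 libraries. It stood at 841 and 572 CPM in the Spp1-led cluster of Rbpj-deleted tumours, 616 and 1023 CPM in that of control tumours and 1129 and 1121 CPM in healthy brain. The Hspb1-led cluster had 1058 and 958, 1152 and 1102, and 1254 and 1465 CPM in the same order. Pooled over libraries, Tgfbr1 was about as low in the Csf1-led cluster (806 CPM) as in the Spp1-led one (797 CPM). The Hspb1-led cluster was the highest of the class, at 1407 CPM, and 1441 of its 1724 cells came from the second healthy library. The other microglia-like clusters ran from 931 to 1391 CPM.

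Smad7 too was lower in the Spp1-led cluster in 6 of 6 libraries, at 615 and 676 CPM in Rbpj-deleted tumours, 341 and 754 CPM in control tumours and 706 and 685 CPM in healthy brain. In the Hspb1-led cluster it stood at 771 and 768, 828 and 903, and 761.8 and 921.6 CPM. The Csf1-led cluster, found in the 4 tumour libraries, had Smad7 at 934 and 845 CPM in Rbpj-deleted and 812 and 883 CPM in control tumours. It had less Tgfb1 than the Hspb1-led cluster in 4 of 4 libraries, at 343 and 358 CPM in Rbpj-deleted and 267 and 280 CPM in control tumours, against 465 and 487 CPM and 392 and 358 CPM.

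Among monocyte/macrophage-like cells, Tgfbr2 was lower in the Ly6c2-led than in the Lyve1-led cluster in the 3 libraries that held at least 20 cells of both. In the Ly6c2-led monocyte cluster it stood at 153 and 104 CPM in Rbpj-deleted tumours and 48.3 CPM in the first control library. The Lyve1-led border macrophage cluster of the same libraries had 389, 270 and 275 CPM. In healthy brain that border cluster had 270 and 382 CPM, within the range of its tumour libraries. A second border macrophage cluster, led by Wfdc17, had 161 and 165 CPM in the healthy libraries. The monocyte cluster led by Ace had more there, at 202 and 193 CPM. The Wfdc17-led cluster was shallow, at 0.323 of the median count of its libraries, with 46 counts of Tgfbr2 in all. Whether Tgfbr2 parts all monocytes from all border macrophages therefore rests on few counts.

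In microglia-like cells the 7 genes were compared between the 3 groups to ask whether the brain's resident macrophages alter the pathway around a tumour, and around one without Rbpj. Tgfb1 had 358 and 405 CPM in Rbpj-deleted tumours, 318 and 317 CPM in control tumours and 461 and 391 CPM in healthy brain. Control tumours were lowest and the other 2 groups overlapped. Here and below, levels are CPM without the further scaling between libraries that the fits used. How many of all genes have groups that do not overlap was not counted, so such a gap is no result by itself. The log2 differences from healthy were 0.02 ± 0.19 in Rbpj-deleted tumours and -0.32 ± 0.20 in control tumours, and neither passed (edgeR adjusted p = 0.964 and 0.496).

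Tgfbr1 had 800 and 616 CPM in Rbpj-deleted tumours, 871 and 1092 CPM in control tumours and 1228 and 1456 CPM in healthy brain. The 3 groups did not overlap, and Rbpj-deleted tumours were lowest. The log2 difference from healthy was -0.74 ± 0.23 in Rbpj-deleted tumours (edgeR adjusted p = 0.0592) and -0.34 ± 0.23 in control tumours (adjusted p = 0.533). Neither passed the threshold of 0.05, and the difference of Rbpj-deleted from control tumours was -0.40 ± 0.23 (adjusted p = 0.5002). The first of these rests close to the threshold: it passed with DESeq2 (adjusted p = 0.0216), with library-size scaling (0.0213), with no filter on low genes (0.0192), with index-hopped barcodes kept (0.0479) and without the first Rbpj-deleted library (0.0165), and its adjusted p ran from 0.0165 to 0.244 over 18 settings. The summed microglia markers were lower in both tumour groups too, as given above, and the part this has in the Tgfbr1 level was not tested.

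Tgfbr2 had 281 and 239 CPM in Rbpj-deleted tumours, 234 and 284 CPM in control tumours and 221 and 257 CPM in healthy brain. All 3 groups overlapped. The log2 differences from healthy were 0.31 ± 0.20 in Rbpj-deleted and 0.23 ± 0.20 in control tumours (edgeR adjusted p = 0.372 and 0.669).

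Smad2 had 45.6 and 39.7 CPM in Rbpj-deleted tumours, 50.9 and 56.6 CPM in control tumours and 52.3 and 65.2 CPM in healthy brain. Smad3 had 34.3 and 28.0 CPM in Rbpj-deleted tumours, 32.7 and 37.1 CPM in control tumours and 47.2 and 51.4 CPM in healthy brain. Both Smads were below healthy in the Rbpj-deleted libraries, and Smad3 also in the control ones. For Smad3 the log2 differences from healthy were -0.46 ± 0.20 in Rbpj-deleted tumours (edgeR adjusted p = 0.163) and -0.39 ± 0.21 in control tumours (adjusted p = 0.416). For Smad2 they were -0.27 ± 0.20 (adjusted p = 0.426) and -0.02 ± 0.20 (adjusted p = 0.982). With library-size scaling Smad3 passed in Rbpj-deleted tumours (adjusted p = 0.0491), under a scaling that moves the median of all genes to -0.22 on the log2 scale, against -0.03 in the fit used here.

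Smad4 had 63.7 and 39.7 CPM in Rbpj-deleted tumours, 74.3 and 61.9 CPM in control tumours and 84.2 and 127 CPM in healthy brain. Every tumour library lay below both healthy ones. The log2 difference from healthy was -0.82 ± 0.27 in Rbpj-deleted tumours (edgeR adjusted p = 0.0755) and -0.52 ± 0.27 in control tumours (adjusted p = 0.406). It passed in Rbpj-deleted tumours with no filter on low genes (adjusted p = 0.00273), with library-size scaling (0.0307), with a split of the libraries as a batch (0.0305; healthy 1 with the control tumours, healthy 2 with the Rbpj-deleted ones), without the first healthy library (0.0289) and without the first Rbpj-deleted library (0.0129), and its adjusted p ran up to 0.330 over 18 settings.

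Smad7 had 861 and 703 CPM in Rbpj-deleted tumours, 757 and 852 CPM in control tumours and 821 and 900 CPM in healthy brain. The groups overlapped. Its log2 differences from healthy were 0.05 ± 0.21 in Rbpj-deleted and 0.01 ± 0.21 in control tumours (edgeR adjusted p = 0.917 and 0.985).

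Counted together in microglia-like cells, edgeR called 0 of 7 members in Rbpj-deleted tumours against healthy, where 11.1% of all genes tested were called, and 3 of 7 had an unadjusted p under 0.05. DESeq2 called 1 of them, Tgfbr1, there, and 0 in each other comparison between groups. The median of the 7 was -0.27, against -0.03 over all genes. In control tumours against healthy 0 of 7 were called, with 3.43% of all genes called, and 0 had an unadjusted p under 0.05. Between Rbpj-deleted and control tumours 0 of 7 were called, with 0.0359% of all genes called, and the log2 differences ran from -0.40 to 0.34.

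**Figure D3:**
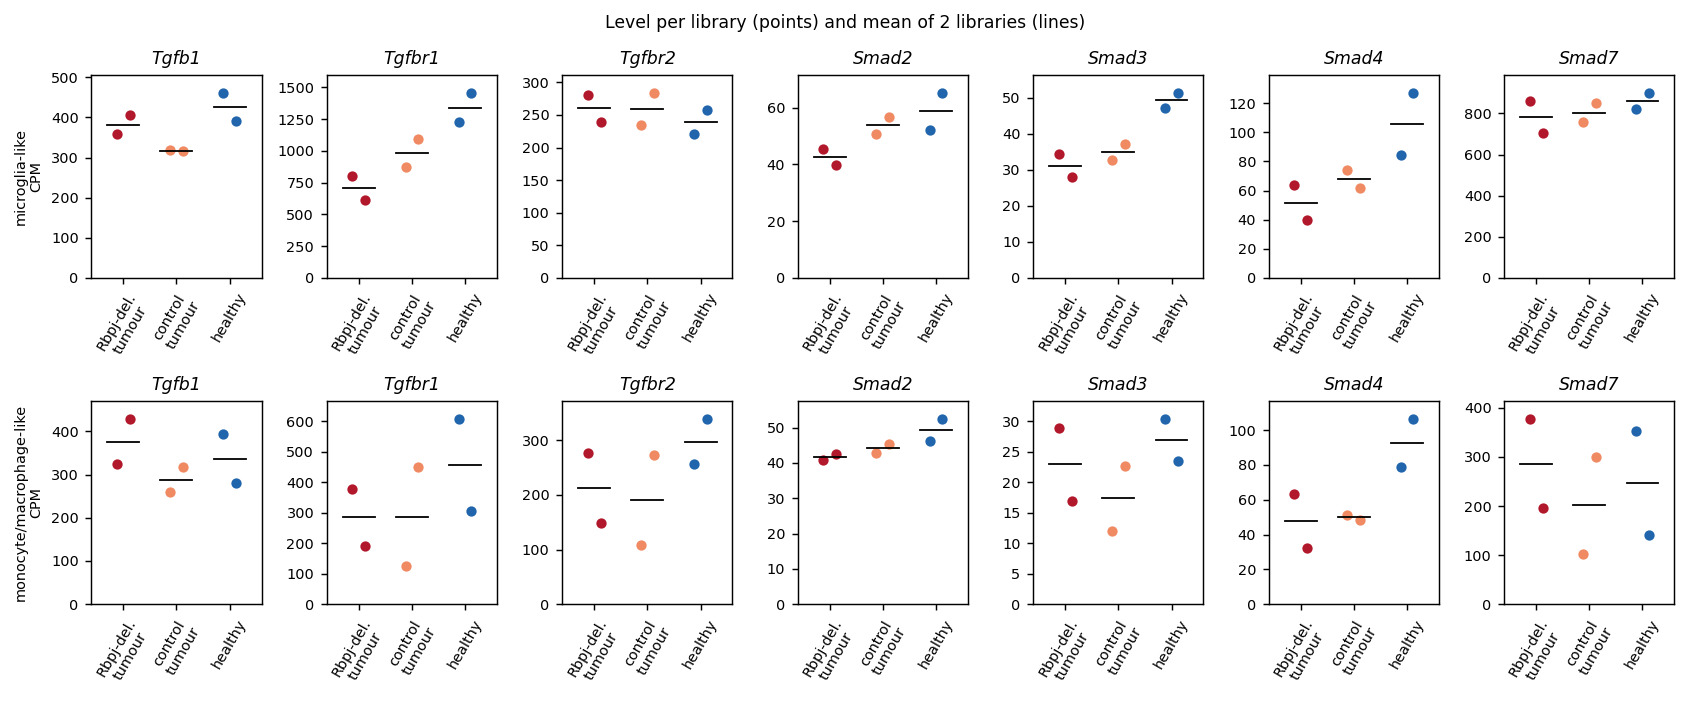
Level of each gene (CPM, linear axes from 0) in microglia-like cells (upper row) and monocyte/macrophage-like cells (lower row) of Rbpj-deleted tumours, control tumours and healthy brain. Points are libraries and lines the mean of 2. Tgfbr1, Smad3 and Smad4 have their healthy microglia-like libraries above all 4 tumour libraries, in CPM without the scaling of the fits. The share of all genes with such a gap was not counted.

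Monocyte/macrophage-like cells had more variable libraries. Tgfbr1 had 378 and 190 CPM in Rbpj-deleted tumours, 124 and 450 CPM in control tumours and 606 and 307 CPM in healthy brain. The groups overlapped, and the 6 libraries ranked by Tgfbr1 as they ranked by their summed microglia markers. The log2 difference from healthy was -0.41 ± 0.62 in both tumour groups (edgeR adjusted p = 0.762 each). It turned to 0.16 in Rbpj-deleted tumours and to 0.16 in control tumours without the first healthy library, and to 0.23 in control tumours without the first control library.

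Smad4 had 63.4 and 32.1 CPM in Rbpj-deleted tumours, 51.1 and 48.5 CPM in control tumours and 78.8 and 106 CPM in healthy brain. As in microglia-like cells, every tumour library lay below both healthy ones. The log2 difference from healthy was -0.67 ± 0.31 in Rbpj-deleted tumours (edgeR adjusted p = 0.278) and -0.59 ± 0.32 in control tumours (adjusted p = 0.338), and neither passed.

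Over all 7 genes in these cells, 0 were called in Rbpj-deleted tumours against healthy (4.97% of all genes called), in control tumours against healthy (4.22%) or in Rbpj-deleted against control tumours (0%). Of all genes in the last comparison, edgeR called 0, with 498 at an unadjusted p under 0.05, and DESeq2 called 18. No member had an unadjusted p under 0.05 in any of these comparisons. The make-up of the class differed too: border macrophage markers summed to 1789 to 2468 CPM in Rbpj-deleted tumours, 1926 to 2200 CPM in control tumours and 7896 to 11999 CPM in healthy brain, and monocyte markers to 956 to 3858, 1723 to 4618 and 356 to 778 CPM. The part of that make-up in these values was not tested.

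The difference of each contrast between the 2 classes was tested as an interaction. Of the 7 members 0 were called for Rbpj-deleted tumours against healthy (0.794% of all genes called), for control tumours against healthy (0.152%) or for Rbpj-deleted against control tumours (0.0169%). The lowest adjusted p were 0.540, 0.452 and 0.874 by edgeR.

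**Figure D4:**
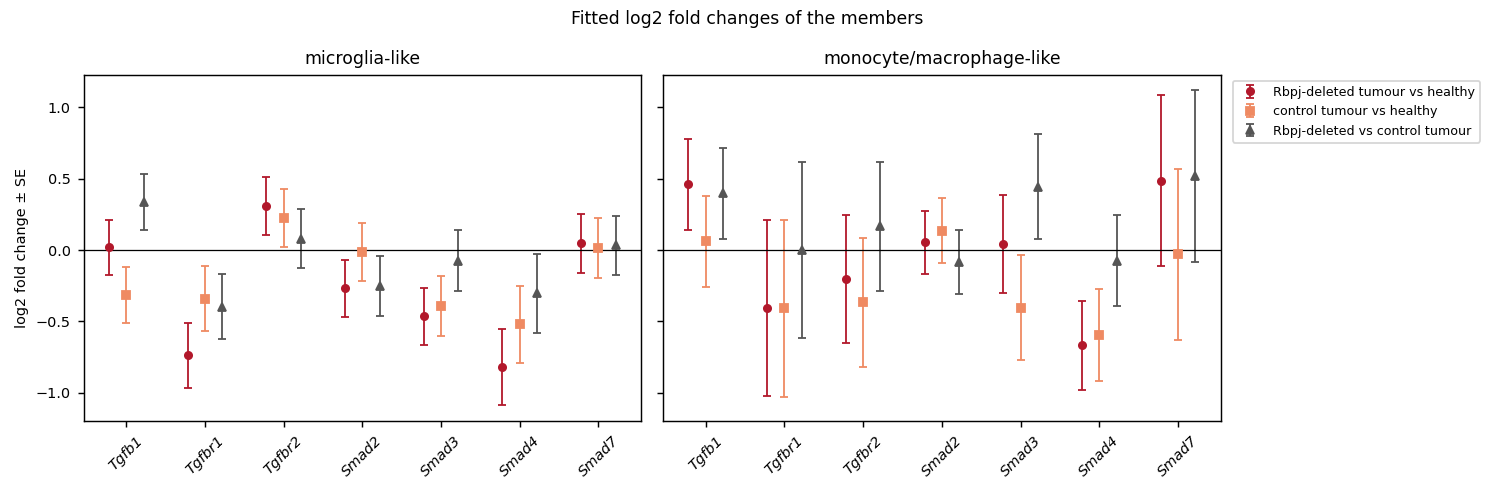
Fitted log2 fold changes (vertical axis) of the 7 genes in microglia-like cells (left) and monocyte/macrophage-like cells (right) for 3 comparisons, with bars of 1 SE. The lowest points in microglia-like cells of Rbpj-deleted tumours are -0.82 for Smad4 and -0.74 for Tgfbr1, and none of the points shown passed the test.

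T-like cells were compared between the tumours alone. Tgfb1 had 281 and 284 CPM in Rbpj-deleted tumours, on 82 and 112 counts, against 173 and 128 CPM in control tumours, on 431 and 109 counts. Both Rbpj-deleted libraries lay above both control ones. The log2 difference was 0.79 ± 0.25 and did not pass (edgeR adjusted p = 0.519). Smad7 had 322 and 198 CPM in Rbpj-deleted tumours, against 179 and 282 CPM in control tumours, and Tgfbr2 had 75.3 and 60.8 CPM, against 72.2 and 89.3 CPM. Of the 6 members tested, without Smad3, 0 were called, with 0.194% of all genes called.

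Dendritic-like cells could be tested in Rbpj-deleted tumours against healthy. Tgfbr1 had 346 and 150 CPM in Rbpj-deleted tumours, against 483 and 128 CPM in healthy brain. The libraries overlapped. Of the 7 members 0 were called, with 5.48% of all genes called and a lowest adjusted p of 0.773 by edgeR.

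Other genes of the pathway were read from 6 lists chosen with earlier results of these data known. Some lists share genes, which are counted in each. Skil, Pmepa1, Ldlrad4 and Tgif1 are among both the regulators and the general target genes. Thbs1 is among both the genes for latent TGF-beta and the general target genes. General TGF-beta target genes rose in part in microglia-like cells of tumours. In Rbpj-deleted tumours 5 of 16 tested were called higher than in healthy brain and 0 lower, where 11.1% of all genes were called, with a list median of 0.89 against -0.03 over all genes. In control tumours 3 of 16 were higher and 0 lower, where 3.43% of all genes were called, with a median of 0.44. Of these, Thbs1, a matrix glycoprotein that can activate latent TGF-beta, had 29.8 and 32.3 CPM in Rbpj-deleted tumours, 34.6 and 30.9 CPM in control tumours and 4.45 and 10.1 CPM in healthy brain. Tumour libraries did not overlap healthy ones. The log2 differences were 2.32 ± 0.33 in Rbpj-deleted and 2.34 ± 0.35 in control tumours (edgeR adjusted p = 0.00216 and 0.00457). Without the Csf1-led cluster, or without either control library, Thbs1 was no longer called in control tumours.

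Id2, an inhibitor of helix-loop-helix factors, had 678 and 376 CPM in Rbpj-deleted tumours, 719 and 517 CPM in control tumours and 263 and 259 CPM in healthy brain. Cdkn1a, the p21 cell cycle inhibitor, had 238 and 139 CPM, 216 and 161 CPM, and 83.6 and 101 CPM in the same order. Both genes were higher in all tumour libraries, and both were called in each tumour group against healthy (log2 differences of 1.14 to 1.35). Neither was called in either group without the Csf1-led cluster, nor in control tumours without either library of that group or of healthy brain. In Rbpj-deleted tumours the call of Id2 was lost without either healthy library or the first Rbpj-deleted one, and that of Cdkn1a without the first healthy library. With the split as a batch neither was called in either group. Id2 was also lost in Rbpj-deleted tumours with the groups compared alone, and Cdkn1a in control tumours with library-size scaling and with clustering without the pathway genes. Bhlhe40, a helix-loop-helix repressor, had 12.7 and 7.14 CPM in Rbpj-deleted tumours, 1.56 and 5.71 CPM in control tumours and 0.703 and 0.459 CPM in healthy brain. It was called in Rbpj-deleted tumours against healthy at 4.21 ± 0.56 on the log2 scale (edgeR adjusted p = 0.000699). Fn1, fibronectin, also one of the monocyte markers, was called there as well, at 8.05 and 44.3 CPM against 0.469 and 0.551 CPM in healthy brain, and its higher library is also the one whose microglia-like cells had border macrophage markers at 581 CPM, against 59.4 to 109 CPM in the other 5 libraries. The part of that RNA in Fn1 was not tested. Monocyte markers in microglia-like cells summed to 122 and 155 CPM in Rbpj-deleted tumours, 122 and 141 CPM in control tumours and 15.5 and 21.4 CPM in healthy brain. Thbs1, Bhlhe40, Fn1 and Cdkn1a were lower in microglia-like than in monocyte/macrophage-like cells, and Id2 was higher, as given below. The part of monocyte or macrophage RNA in the higher target genes was not tested.

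Of the genes that depend on TGF-beta in microglia, 2 of 16 were called lower in Rbpj-deleted tumours than in healthy brain and 0 higher, with a median of -0.77. That count is near the 11.1% of all genes called there, so the calls are no result about the list. Of the 16, 10 had an unadjusted p under 0.05 there by edgeR. Tmem119 had 1284 and 1096 CPM in Rbpj-deleted tumours, 1397 and 1542 CPM in control tumours and 2365 and 2464 CPM in healthy brain. Cx3cr1, the fractalkine receptor, had 1464 and 1234 CPM, 1878 and 1912 CPM, and 2517 and 2800 CPM in the same order. The 3 groups did not overlap in either gene. In Rbpj-deleted tumours the log2 differences were -0.84 ± 0.21 and -0.80 ± 0.21 (edgeR adjusted p = 0.0227 and 0.0283), and both calls were lost without the Csf1-led cluster, with the split as a batch, with the groups compared alone and when any library but the first Rbpj-deleted one was left out. In control tumours 0 of 16 were called, with a median of -0.31 and 3 at an unadjusted p under 0.05. Most genes of this list are also markers that name the class.

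Acvr2b, an activin type II receptor, fell in microglia-like cells of both tumour groups. It had 12.8 and 14.6 CPM in Rbpj-deleted tumours, 23.3 and 17.1 CPM in control tumours and 50.5 and 45.3 CPM in healthy brain. The groups did not overlap. The log2 differences from healthy were -1.64 ± 0.22 in Rbpj-deleted and -1.13 ± 0.23 in control tumours (edgeR adjusted p = 0.000731 and 0.0175), and the first passed under all 18 settings. The second was lost without either control library, the first healthy library or the Csf1-led cluster. Acvr2a had 9.56 and 8.0 CPM in Rbpj-deleted tumours, 16.7 and 16.2 CPM in control tumours and 17.3 and 26.3 CPM in healthy brain, and was called lower in Rbpj-deleted tumours alone (-1.09 ± 0.28, adjusted p = 0.0257), a call lost without either control library, the second healthy or the second Rbpj-deleted one, with the groups compared alone and without the Csf1-led cluster. Between the tumour groups 0 of 9 such receptors were called, with 1 at an unadjusted p under 0.05. Bambi, a decoy receptor that dampens the pathway, was called higher in Rbpj-deleted tumours at 1.37 ± 0.39, on 84 and 24 counts. The list thus had 1 gene higher and 2 lower of 9, where 11.1% of all genes were called. Bambi was called under 8 of 18 settings. The call was lost when any library but the second healthy one was left out, with DESeq2, the groups compared alone, the split as a batch, library-size scaling, and without the Csf1-led cluster. Between the classes, Bambi was called lower in microglia-like than in monocyte/macrophage-like cells under all 18 settings. The part of macrophage RNA in its counts was not tested.

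Among 22 other Smads and regulators, Smad5, a Smad of the BMP branch, was the 1 gene called in Rbpj-deleted tumours against healthy, where 11.1% of all genes were called, and was lower (-0.72 ± 0.20, edgeR adjusted p = 0.0429). In control tumours 0 of 22 were called, with 3 at an unadjusted p under 0.05. The Smad5 call was lost when any library but the first Rbpj-deleted one was left out, with DESeq2, the groups compared alone, the split as a batch and without the Csf1-led cluster. Of 12 genes for latent TGF-beta, Mmp14, a membrane protease that can free TGF-beta, was called higher in both tumour groups. It had 4.53 and 4.0 CPM in Rbpj-deleted tumours, 5.44 and 7.14 CPM in control tumours and 0.402 and 0.459 CPM in healthy brain, where it had 12 and 5 counts. Itgb3, an integrin subunit that binds the latent complex, was called lower in Rbpj-deleted tumours (-0.85 ± 0.21, adjusted p = 0.0249), a call lost when any library but the second healthy one was left out, with the groups compared alone, the split as a batch and without the Csf1-led cluster. Of 3 tested ligands of other branches Bmp2 was called higher in both groups, on 39 and 16 counts in Rbpj-deleted tumours, 7 and 5 in control tumours, and 10 and 0 in healthy mice. It was called in control tumours under 6 of 17 settings, and not with the split, the groups compared alone, library-size scaling, clustering without the pathway genes or the other cell filters, nor without either control library, the second healthy or the first Rbpj-deleted one. Between the classes, Bmp2 was called lower in microglia-like than in monocyte/macrophage-like cells under all 18 settings (log2 -8.81 to -3.86). The part of macrophage RNA in its counts was not tested.

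Monocyte/macrophage-like cells of tumours had higher target genes as well. Called higher than healthy were 4 of 17 in Rbpj-deleted tumours and 4 of 17 in control tumours, where 4.97% and 4.22% of all genes were called, with 0 lower and medians of 1.33 and 1.34 against -0.02 over all genes in each. Tgif1, a repressor of Smad-driven transcription, had 143 and 81.1 CPM in Rbpj-deleted tumours, 140 and 122 CPM in control tumours and 37.5 and 26.9 CPM in healthy brain. Cdkn1a had 399 and 307, 527 and 204, and 98.4 and 103 CPM in the same order. All tumour libraries lay above both healthy ones, as for Bhlhe40 and Id3, the other called genes. In Rbpj-deleted tumours the 4 calls were lost when the first healthy library was left out, and in control tumours those of Bhlhe40, Id3 and Cdkn1a. Without the second healthy library those of Bhlhe40 and Cdkn1a were lost in both groups and that of Tgif1 in Rbpj-deleted tumours. Leaving out either Rbpj-deleted library ended those of Bhlhe40 and Cdkn1a in that group, and the second ended that of Id3 there. In control tumours Cdkn1a was also lost without the first control library or either Rbpj-deleted one, and with the groups compared alone. With the split as a batch the 4 calls were lost in Rbpj-deleted tumours, and those of Bhlhe40 and Cdkn1a in control tumours. Fcrls and Gas6 were called lower in both groups, and Fcrls had 460 and 448 CPM in Rbpj-deleted tumours, 321 and 564 CPM in control tumours and 2709 and 1879 CPM in healthy brain. Without the first Rbpj-deleted library, and without the second, neither was called in that group, and without the first control library neither was called in control tumours. Fcrls was also lost in both groups without the first healthy library. Gas6 was lost in both without the second healthy library, and in control tumours also without the second control library or either Rbpj-deleted one, and with the groups compared alone. It was lost in both with mixed barcodes at 10%, and in Rbpj-deleted tumours with mixed barcodes kept. With the split, Fcrls was lost in Rbpj-deleted and Gas6 in control tumours. Mmp14 was called higher and Mmp9, a gelatinase, lower in both, and in control tumours both calls were lost without the first healthy or the first control library. In Rbpj-deleted tumours that of Mmp9 was lost without the first healthy or the second Rbpj-deleted library and with the split, and in control tumours also with the groups compared alone. The monocyte and border macrophage markers above moved with these genes.

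Between Rbpj-deleted and control tumours, edgeR called 0 genes of the 6 lists in microglia-like, monocyte/macrophage-like or T-like cells. In microglia-like cells 2 of 16 target genes and 3 of 16 TGF-beta-dependent genes had an unadjusted p under 0.05. In the interaction of class and group, 0 were called in each list. In dendritic-like cells of Rbpj-deleted tumours against healthy, Itgae, the CD103 integrin, which is also a dendritic cell marker, was higher by 3.51 ± 0.63 (edgeR adjusted p = 0.00117), with Cdkn1a and Gdf15 also called higher and Fcrls lower. Those 3 calls were lost without the first Rbpj-deleted library, that of Cdkn1a also without the second healthy one, and that of Fcrls without the first healthy or the second Rbpj-deleted one. With mixed barcodes kept, the log2 difference of Cdkn1a turned to -0.35 and that of Fcrls to 0.04. Both calls were also lost with mixed barcodes at 10% and with clustering without the pathway genes, those of Cdkn1a and Gdf15 with library-size scaling, and that of Fcrls with index-hopped barcodes kept and with the split.

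**Figure D5:**
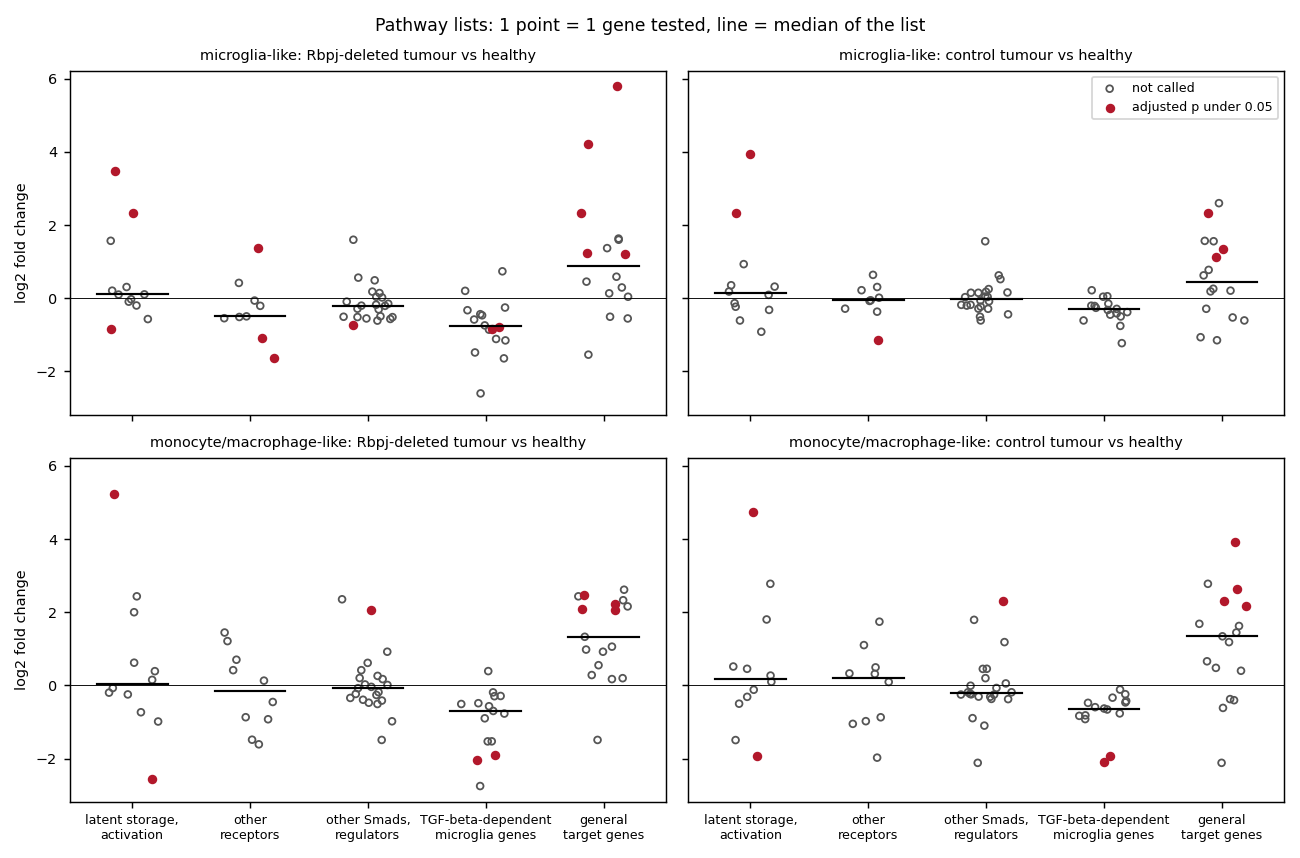
Log2 fold changes (vertical axis) of each tested gene in 5 pathway lists (horizontal axis), in microglia-like (upper row) and monocyte/macrophage-like cells (lower row), for Rbpj-deleted tumours (left) and control tumours (right) against healthy brain. Filled points passed the test and lines are list medians, which for the general target genes are 0.89 and 0.44 in the upper row and 1.33 and 1.34 in the lower row.

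Between the classes the lists split. Of 17 general target genes, 5 were called higher and 7 lower in microglia-like than in monocyte/macrophage-like cells, in a test that called 42.8% of all genes. Among the higher were the receptor brakes Pmepa1 (1.34 ± 0.23 on the log2 scale) and Ldlrad4 (1.48 ± 0.29), Skil (1.001 ± 0.19) and Id2, and lower were Tgfbi (-3.73 ± 0.15), Id3 (-4.23 ± 0.49), Bhlhe40 (-3.28 ± 0.45), Thbs1 (-2.06 ± 0.26), Fn1, Id1 and Cdkn1a. Among the 14 tested genes for latent TGF-beta, the integrin subunits Itgav (0.98 ± 0.13), Itgb3 (1.40 ± 0.23) and Itgb5 (1.496 ± 0.26) were higher, and Mmp9 (-6.05 ± 0.34), Nrros (-0.64 ± 0.11) and Lrrc32 (-3.49 ± 0.82) were lower. Nrros and Lrrc32 encode anchors that hold latent TGF-beta at the cell surface. With healthy libraries alone the calls of Ldlrad4 and Id3 were lost, and that of Nrros was lost with those of Rbpj-deleted or of control tumours alone. The named genes had edgeR adjusted p from 4.77e-07 to 0.00977. Of 10 other receptors 6 were higher and 2 lower, of 22 other Smads and regulators 9 were higher and 2 lower, a share near that of all genes, and of 16 TGF-beta-dependent microglia genes 14 were higher and 1, Gas6, was lower, a call lost without either control library, the first healthy or the first Rbpj-deleted one, with no filter on low genes, without the Csf1-led cluster and with the Rbpj-deleted libraries alone. The last list overlaps the markers that name the class and is no independent support.

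Over 30 class-by-library profiles, which share libraries and free RNA, Rhob was among the genes whose log2(CPM + 1) was most like Tgfbr1 (Pearson r = 0.973, among 5986 genes). For the other members the nearest genes were less alike: Usf1 for Tgfb1 (0.784), Slc12a2 for Tgfbr2 (0.855), Kdm3a for Smad2 (0.883), Map1lc3a for Smad3 (0.776), Celf1 for Smad4 (0.828) and Apbb1ip for Smad7 (0.797). Among the members themselves Tgfbr1 and Tgfbr2 were the most alike pair (0.755).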

How the data were processed

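CD45+ cells of 6 libraries, 2 in each of 3 groups, were measured by 10x Genomics 3' single-cell RNA sequencing. The deposited table holds raw counts of unique molecules for 27378 gene IDs and 17362 barcodes, with no normalization, and kallisto 0.46.0, bustools 0.39.3 and mm10 are named in the submitters' processing notes. GENCODE vM21 gave a symbol to 27359 IDs and none to 19. The members and lists were chosen with earlier results of these data known.

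Barcodes with at least 500 genes, at most 10% mitochondrial counts and no index-hopped copy (a shared barcode with 10 times more counts elsewhere) were kept. Barcodes where markers of a second lineage had at least 3 counts and reached 5% of their share in the cluster highest for them were left out as mixed, in place of a doublet caller. Cells were clustered with scanpy 1.11.5 (2000 variable genes, 30 principal components, 20 neighbours, Leiden resolution 1) and named from fixed markers. Counts were summed by library and class where a class had at least 20 cells, and tested with the edgeR 4.0.16 quasi-likelihood test (R 4.3.3, filterByExpr, TMM), with Benjamini-Hochberg adjustment over all genes tested and calls at an adjusted p under 0.05. All groups with enough cells entered each fit. The class test had library as a term. Errors of log2 differences are standard errors. The fits were first run on simulated data with known changes. The recovery of those changes is not given here, so a gene that did not pass may still have changed. Libraries held 17430763 to 55229031 counts, and kept cells a median of 5303 to 10341 counts. Floors of 3 counts cover counting error only. Alternatives were DESeq2 1.42.0, library-size scaling, no filter on low genes, other cell filters and clusterings, a split of the libraries as a batch, a replicate block, groups compared alone and each library left out. All members were named, with up to 4 called genes of the smallest p per list, direction and comparison. Where the text names a called gene beyond these 4, it was chosen after its values were seen. Some results that the rule would name are not reported here.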

Additional observations from a re-analysis of the deposited data

How the results depend on the processing

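The class differences of Tgfbr1 (log2 1.38 to 1.93) and Smad7 (1.52 to 2.08) kept their direction and their call under all 18 settings, and that of Smad3 under 17. Tgfbr2 turned to -0.27 with healthy libraries alone and Smad2 to -0.0054 with Rbpj-deleted libraries alone. In Rbpj-deleted tumours against healthy, microglia-like cells had 1 called member with DESeq2, 1 with index-hopped barcodes kept, 1 with the library split as a batch, 3 with library-size scaling, 2 with no filter and 0 to 2 with 1 library left out. There Tgfb1 turned to -0.16 with library-size scaling (-0.10 to 0.17 with 1 library left out). Smad7 turned to -0.0045 with the split, -0.14 with library-size scaling and -0.22 without the Csf1-led cluster (-0.13 to 0.20 with 1 library left out). In control tumours against healthy, Smad2 turned to 0.01 with clustering without the pathway genes and 0.13 with the split (-0.16 to 0.13 with 1 library left out), and Smad7 to -0.0082 with hopped barcodes kept, -0.10 with library-size scaling, -0.026 with mixed barcodes kept, -0.0465 with no filter and -0.0917 without the Csf1-led cluster (-0.10 to 0.0942 with 1 library left out). In monocyte/macrophage-like cells Tgfbr1 turned to 0.16 in Rbpj-deleted tumours with the split (-0.93 to 0.16 with 1 library left out) and ranged from -1.55 to 0.23 in control tumours with 1 library left out. The cause of these turns was not tested.

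Counts of all genes called moved more. In microglia-like cells, Rbpj-deleted against healthy gave 1237, with 1930 under no filter, 678 without the Csf1-led cluster and 819 to 1672 with 1 library left out. Rbpj-deleted against control tumours gave 4, with 143 by DESeq2, 152 with the groups alone, 15 with the split, 8 with mixed barcodes kept, 387 under no filter, 0 without the Csf1-led cluster and 0 to 370 with 1 library left out. Control against healthy gave 382, with 582 by DESeq2, 774 under no filter, 20 without the Csf1-led cluster and 134 to 612 with 1 library left out. In monocyte/macrophage-like cells, Rbpj-deleted against healthy gave 558, with 939 by DESeq2, 132 with the split, 1440 under no filter and 109 to 850 with 1 library left out. Rbpj-deleted against control tumours gave 0, with 18 by DESeq2, 15 with the groups alone, 2 with mixed barcodes kept, 75 under no filter and 0 to 18 with 1 library left out. Control against healthy gave 474, with 859 by DESeq2, 224 with the split, 754 with mixed barcodes kept, 1382 under no filter and 104 to 684 with 1 library left out. T-like cells gave 12, with 22 by DESeq2, 117 under no filter and 23 to 164 with 1 library left out, and dendritic-like cells 401, with 59 with mixed barcodes kept. The class test gave 5103, with 2760 in Rbpj-deleted, 1951 in control and 2900 in healthy libraries alone, a setting chosen after seeing the data.

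The interaction gave 94 for Rbpj-deleted against healthy, with 198 by DESeq2, 163 with hopped barcodes kept, 529 under no filter and 44 to 196 with 1 library left out. It gave 2 for Rbpj-deleted against control, with 10 by DESeq2, 4 with clustering without the pathway genes, 0 with mixed barcodes kept, 107 under no filter and 0 to 25 with 1 library left out. It gave 18 for control against healthy, with 84 by DESeq2, 31 with hopped barcodes kept, 53 with mixed barcodes at 10%, 40 with mixed barcodes kept, 409 under no filter and 18 to 143 with 1 library left out. Library-size scaling split the calls of microglia-like cells into 670 higher and 871 lower in Rbpj-deleted tumours against healthy, beside 865 and 372, and 283 and 91 in control tumours, beside 336 and 46. In monocyte/macrophage-like cells the splits were 290 and 335 beside 377 and 181, and 296 and 264 beside 363 and 111.

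The replicate numbers were not taken to pair libraries, because no label says what a number shares. Deviations of same-numbered libraries from their group means correlated at -0.34 to 0.24. The highest value was for healthy with Rbpj-deleted libraries in monocyte/macrophage-like cells. With 2 libraries a group the deviations mirror each other, so these correlations cannot settle whether the numbers pair libraries. With the replicate block, calls in microglia-like cells of Rbpj-deleted against control tumours were 19, and in monocyte/macrophage-like cells 365 in Rbpj-deleted and 298 in control tumours against healthy. Under it Smad5 and Cx3cr1 were not called in microglia-like cells of Rbpj-deleted tumours, Cdkn1a, Fcrls and Gas6 in monocyte/macrophage-like cells of either tumour group, and Mmp9 in those of control tumours. The block or split could not be fitted in the class and interaction tests, nor the split in T-like cells. A library left alone in its group was assumed to vary like the others. The split sets healthy replicate 1 with the control tumours and healthy replicate 2 with the Rbpj-deleted ones. No sample label names such a batch, and only the healthy libraries tell it apart from the groups. Low counts limit Smad3 (78 to 1411 counts a library in microglia-like cells) most.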

Other observations

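Outside the named classes, 746 cells led by Mir6236, which carried microglia markers at a median count of 0.267 of that of their own libraries, had Tgfbr1 at 1650 CPM, Smad7 at 1386 CPM and Smad4 at 121 CPM when pooled over libraries. Tgfb1 stood at 301 CPM there. A second unnamed set of 276 cells, led by ribosomal protein genes at 0.305 of the median, had Tgfbr1 at 470 CPM, Smad7 at 62.2 CPM and Smad4 at 18.9 CPM, so 2 sets of shallow cells held these genes at very different levels. Dividing cells led by Mki67, 394 in all, had Tgfbr1 at 363 CPM and Smad7 at 398 CPM. These are values pooled over libraries, with no test.

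Among monocytes, a cluster led by Ace, a gene of patrolling monocytes, had Tgfbr1 at 856 and 541 CPM in the healthy libraries, the only ones with at least 20 of its cells. The Ly6c2-led cluster had 209 and 176 CPM in Rbpj-deleted tumours and 96.6 CPM in the first control library. Tgfb1 stood at 484 and 321 CPM in the Ace-led cluster, and in the Ly6c2-led one at 421 and 485 CPM in Rbpj-deleted tumours and 268 CPM in the first control library. The clusters come from different groups, so group and cell state cannot be told apart here.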
